A study of Mus musculus with 7 samples.

Results

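Inhibitory checkpoint receptors were measured as transcripts in splenic regulatory T cells (Tregs) of aged and young mice. The receptors were listed by name and function. They are Pdcd1, Ctla4, Lag3, Havcr2, Tigit, Cd96, Btla, Cd160, Cd200r1 and Cd200, the last of which is the ligand of Cd200r1. All 10 were among the 25469 genes of the deposited table, and all 10 passed the filter on low counts. They, and the gene lists set beside them, were chosen with earlier results of these data known. The shares called among them are therefore descriptions and not tests. The RNA came from CD4+CD25+ splenocytes of wild-type (WT) male C57BL/6 mice, isolated with magnetic beads, and no treatment or surgery is stated for these cells. The aged group held 3 libraries from 18-month mice and the young group 4 libraries from 8-week mice. The study's methods give a somewhat older age for the young mice than the sample labels, which are followed here. The labels call the libraries biological replicates, without saying whether each came from 1 mouse or a pool, so p-values measure the spread between these libraries.

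Checkpoint receptors are surface proteins that dampen T cell activation. They do so by recruiting phosphatases and other inhibitors to the cytoplasmic tail, by removing or competing for ligands that activating receptors would use, or by signalling into the cell that carries the ligand. Tregs carry several of them at rest, and CTLA-4 is a core part of their suppressive function. In conventional T cells the same receptors rise on activation, stay high in chronically stimulated (exhausted) cells, and mark subsets such as T follicular helper cells. CD4+CD25+ cells isolated by beads can also hold recently activated conventional T cells.

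Gene counts were 10734234 to 13649310 per library. Levels are given as counts scaled to library size (CPM), between libraries by the TMM method, with mean ± SD. Detection was limited to 3 counts, or 0.210 to 0.302 CPM by library on this scale, and every receptor lay above that in every library. Such limits cover counting error only, since the cDNA carried no molecular identifiers. Cd4 was 441 ± 6.34 (n = 3) in aged and 545 ± 62.1 (n = 4) in young Tregs, and Foxp3, the defining transcription factor of Tregs, was 516 ± 93.3 and 446 ± 61.8. Il2ra, which encodes CD25, was 380 ± 87.0 and 579 ± 94.3 (adjusted p = 0.0588), a log2 fold change of -0.61 that was called in 8 of 15 alternatives (with DESeq2 at an adjusted p of 0.00652) and, with 1 library left out, only without aged replicate 1 (-0.81, adjusted p = 0.0157). Markers of other cell types were present in all libraries. Summed over each list, erythroid markers were at 12690 to 156900 CPM in aged and 12380 to 116100 in young libraries, neutrophil markers at 632 to 4501 and 233 to 822, B cell markers at 1074 to 1991 and 1513 to 2326, and plasma cell markers at 749 to 1304 and 325.5 to 2003. Those of CD8 T cells were at 45.4 to 82.0 and 48.8 to 92.8. Platelet markers were at 20.2 to 39.5 in aged and 8.20 to 17.3 in young libraries, without overlap, with 1 of 4 tested (Ppbp) called higher, where 9.8% of all tested genes were called higher. The first principal component, with 46.7% of the variance, separated the ages. On the second, with 21.3%, young replicate 2 (43.9) stood apart from the other young libraries (-19.2 to -8.58), while the aged libraries were spread (32.7, -30.0 and -1.05, highest in replicate 1). Of 13904 genes tested, edgeR called 2327 (16.7%) at an adjusted p under 0.05, 1362 higher (9.8%) and 965 lower (6.94%) in aged Tregs. When libraries were scaled to a list of T cell genes instead, the median log2 fold change of all genes moved from 0.02 to -0.19. Of the called genes, 33.9% were then higher in aged Tregs in place of 58.5%. The listed T cell genes were not level between the ages. In the TMM fit their median log2 fold change was 0.24, with 1 of 8 called higher (Cd3e, 0.46, adjusted p = 0.0301) and 0 lower.

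Of the 10 receptors, Lag3 and Tigit rose and Cd96 fell in aged Tregs. This was 3 of 10 called, where 16.7% of all tested genes were called. The 3 were also the receptors whose aged and young libraries did not overlap, as was the case for 29.9% of tested genes (15.5% higher and 14.4% lower in all aged libraries). Ctla4 and Pdcd1 had higher means in aged Tregs but did not pass the test while young replicate 2 was included. Cd160 had a lower mean and did not pass. Btla, Cd200, Cd200r1 and Havcr2 did not pass in any fit with a library left out. The median log2 fold change was 0.20 over the 10 receptors and 0.02 over all tested genes.

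**Figure D1:**
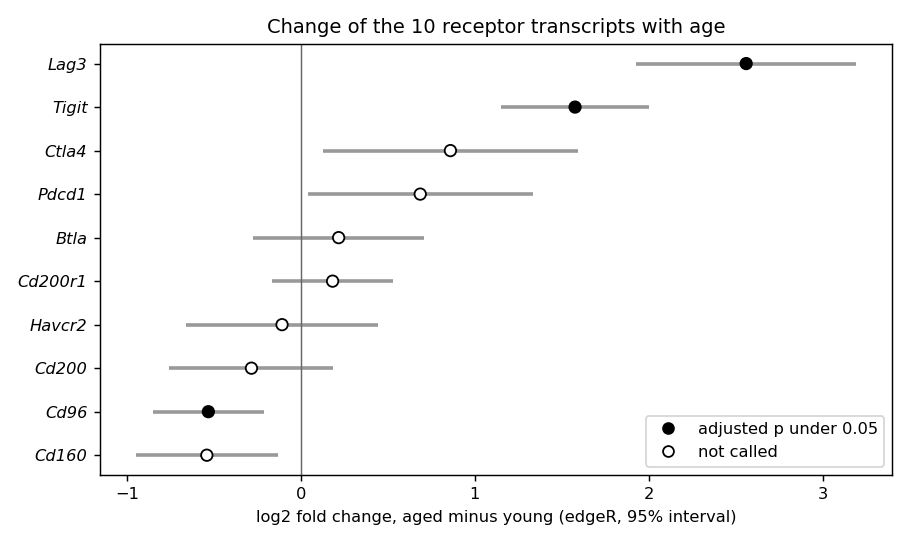
Log2 fold change (aged minus young) of the 10 receptor transcripts from edgeR, with 95% intervals, sorted by size. Filled points have an adjusted p under 0.05: Lag3 at 2.56, Tigit at 1.58 and Cd96 at -0.53.

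Lag3 encodes a relative of CD4 that binds MHC class II. Its gene (ENSMUSG00000030124) lies on the minus strand at chr6:124904361-124911705 (GRCm38), beside Cd4. Lag3 was 124, 98.2 and 224 CPM in aged replicates 1, 2 and 3. In young replicates 1 to 4 it was 21.1, 32.1, 22.7 and 25.0. The lowest aged library was thus above the highest young one, and aged replicate 3 was the highest of all. The means were 149 ± 66.5 (n = 3) and 25.2 ± 4.87 (n = 4). Lag3 rose 5.90-fold by the edgeR fit (log2 fold change 2.56, SE 0.28, 95% interval 1.93 to 3.19, adjusted p = 0.00125). With each library left out in turn the log2 fold change was 2.14 to 2.79, lowest without aged replicate 3, and the call held in 7 of 7 fits. The nearest protein coding genes did not pass the test: Cd4 had a log2 fold change of -0.30 (adjusted p = 0.117) and Ptms one of -0.08.

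Tigit encodes a receptor that binds the nectin family proteins PVR (CD155) and nectin-2, for which it competes with the activating receptor CD226. Its gene (ENSMUSG00000071552) lies on the minus strand at chr16:43648867-43664146. Tigit was 161.5, 140.4 and 185 CPM in the aged libraries. In the young libraries it was 49.5, 74.8, 48.9 and 44.8. All aged libraries lay above all young ones, and young replicate 2 stood above the other young libraries. The means were 162 ± 22.5 (n = 3) and 54.5 ± 13.7 (n = 4), a 2.98-fold rise (log2 fold change 1.58, SE 0.19, 95% interval 1.15 to 2.00, adjusted p = 0.00162). The log2 fold change was 1.47 to 1.77 with a library left out, largest without young replicate 2, and the call held in 7 of 7 fits.

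Cd96 encodes another receptor of PVR, known mainly from NK and T cells. Its gene (ENSMUSG00000022657) lies on the minus strand at chr16:46035657-46120251. Cd96 was 113, 115 and 97.2 CPM in aged and 154, 193, 146 and 135 CPM in young libraries. All aged libraries lay below all young ones, the opposite order to that of Tigit. The means were 109 ± 9.83 (n = 3) and 157 ± 25.4 (n = 4), and Cd96 fell by 0.53 on the log2 scale (SE 0.14, 95% interval -0.85 to -0.22, adjusted p = 0.0347), or 1.45-fold. The call was lost without aged replicate 2 (adjusted p = 0.0566), aged replicate 3 (0.117), young replicate 1 (0.0725) or young replicate 3 (0.0654), with log2 fold changes of -0.60 to -0.42 over the 7 fits. The summed level of NK cell markers was 34.0 to 52.3 CPM in aged and 46.5 to 77.2 in young libraries, with 1 of 8 markers called lower. That of gamma delta T cell markers was 16.8 to 21.9 and 29.8 to 41.1 CPM, with 1 of 4 tested markers called lower, where 6.94% of all tested genes were called lower. All 7 naive T cell markers were called lower as well, at sums of 943 to 1170 and 1889 to 2229 CPM without overlap. The part of these cells in the fall of Cd96 was not tested. In such bulk samples, fewer cells of a type and less RNA per cell cannot be told apart.

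Sequences upstream of the start of Tigit, Cd96, Btla and Cd200 are shown because these genes lie near each other on chromosome 16 and the first rose while the second fell. They are the 250 bases before the RefSeq transcription start on GRCm38.p6, 5′ to 3′ on the strand of the gene, at chr16:43664185-43664434 (minus strand), chr16:46120249-46120498 (minus strand), chr16:45224087-45224336 (plus strand) and chr16:45409054-45409303 (minus strand). Capitals mark matches on either strand to the letters TGTGGT (RUNX), TGGAAA (NFAT) and TGANTCA (AP-1).
Tigit: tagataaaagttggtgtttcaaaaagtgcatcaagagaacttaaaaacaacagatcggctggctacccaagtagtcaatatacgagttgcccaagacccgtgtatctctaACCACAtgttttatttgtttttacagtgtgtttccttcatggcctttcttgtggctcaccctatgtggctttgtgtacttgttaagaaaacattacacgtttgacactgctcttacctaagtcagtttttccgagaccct
Cd96: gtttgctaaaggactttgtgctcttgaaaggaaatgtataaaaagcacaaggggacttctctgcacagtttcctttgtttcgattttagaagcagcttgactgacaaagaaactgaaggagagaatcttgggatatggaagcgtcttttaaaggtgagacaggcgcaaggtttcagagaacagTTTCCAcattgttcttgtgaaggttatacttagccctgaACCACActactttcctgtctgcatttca
Btla: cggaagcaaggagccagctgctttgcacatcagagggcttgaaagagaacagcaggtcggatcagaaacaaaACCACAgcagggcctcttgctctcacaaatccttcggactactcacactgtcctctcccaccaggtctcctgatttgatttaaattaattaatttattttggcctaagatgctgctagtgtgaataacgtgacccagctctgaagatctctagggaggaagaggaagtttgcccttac
Cd200: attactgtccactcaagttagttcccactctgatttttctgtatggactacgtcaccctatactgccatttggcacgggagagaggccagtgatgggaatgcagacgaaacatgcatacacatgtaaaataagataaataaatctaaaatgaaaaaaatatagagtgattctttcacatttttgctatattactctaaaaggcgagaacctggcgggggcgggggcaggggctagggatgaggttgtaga
The windows of Tigit, Cd96 and Btla held 1 match each to the RUNX letters, that of Cd96 also held 1 match to the NFAT letters, and that of Cd200 held 0 matches. Among 9 windows for 8 of the receptors (Cd160 has 2 starts), 6 held the RUNX letters, those of Tigit, Btla, Cd96 and Havcr2 and both of Cd160. The share over 32851 windows of the same length was 14.1%. The NFAT letters occurred in the windows of Ctla4 and Cd96 and in 18.6% of all windows, and the AP-1 letters in that of Havcr2 and in 6.75% of all windows. The letters do not overlap each other in these 4 windows. A match is a description of the sequence only.

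**Figure D2:**
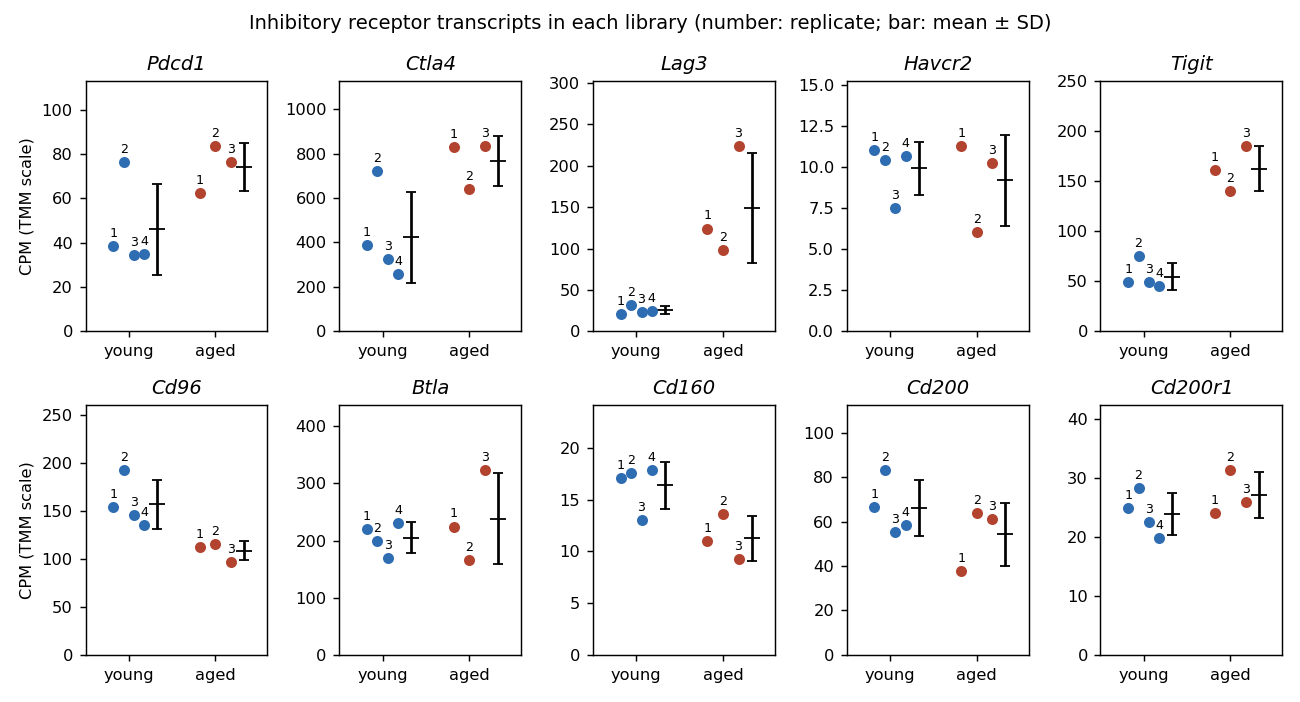
Level of each receptor transcript (CPM on the TMM scale, vertical axis) in the 4 young and 3 aged libraries, numbered by replicate, with mean ± SD. Aged and young libraries do not overlap for Lag3, Tigit and Cd96, and young replicate 2 is the highest young library for 7 of the 10 transcripts.

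Ctla4 encodes the receptor with which Tregs bind, and remove from antigen-presenting cells, the ligands CD80 and CD86 that CD28 needs. Its gene (ENSMUSG00000026011) lies on the plus strand at chr1:60887000-60915832. Ctla4 was 829, 639.7 and 835.5 CPM in aged and 390.1, 721, 325.5 and 257 CPM in young libraries. The young libraries were split, with replicate 2 above aged replicate 2 and the others below all aged libraries. The means were 768 ± 111 (n = 3) and 423 ± 206 (n = 4). The log2 fold change of 0.86 (SE 0.32, 95% interval 0.13 to 1.59) did not pass the test over all genes (adjusted p = 0.103). Without young replicate 2 it was 1.25 and passed (adjusted p = 0.00593). With any other library left out it was 0.68 to 0.98 and did not pass.

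Pdcd1 encodes PD-1, the receptor of PD-L1 and PD-L2. Its gene (ENSMUSG00000026285) lies on the minus strand at chr1:94038305-94052553. Pdcd1 was 62.2, 83.7 and 76.3 CPM in aged and 38.4, 76.5, 34.3 and 34.8 CPM in young libraries. Young replicate 2 again lay within the aged range, and the other young libraries lay below all aged ones. The means were 74.1 ± 10.9 (n = 3) and 46.0 ± 20.4 (n = 4). The log2 fold change of 0.69 (SE 0.28, 95% interval 0.04 to 1.33) did not pass over all genes (adjusted p = 0.134). Without young replicate 2 it was 1.05 (adjusted p = 0.00321), and without any other library 0.57 to 0.79, which did not pass. In the fit without young replicate 2, 5 of 10 receptors were called (4 higher and 1 lower), where 14.5% of 13696 tested genes were called and 9.11% were called higher.

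Young replicate 2 was the highest young library for 7 of the 10 receptors and for 35.8% of all tested genes. Its summed level of 10 Treg markers was 3416 CPM, against 2352 to 2943 in the other young and 2648 to 2942 in the aged libraries. Its summed level of 8 T cell genes was 2546 CPM, against 1966 to 2103 in the other young and 2293 to 2603 in the aged libraries. It also had the highest plasma cell sum, 2003 CPM against 325.5 to 497.5 in the other young libraries, and the lowest erythroid sum, 12380 CPM against 59930 to 116100, and the lowest neutrophil sum, 233 CPM against 357 to 822. The part of these differences in the levels of Ctla4 and Pdcd1 was not tested. Scaled to the T cell genes, where all genes shifted by the amount given above, the log2 fold changes were 0.71 for Ctla4 (adjusted p = 0.0945) and 0.52 for Pdcd1 (adjusted p = 0.111), and those of Lag3 and Tigit were 2.37 and 1.40, both called.

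**Figure D3:**
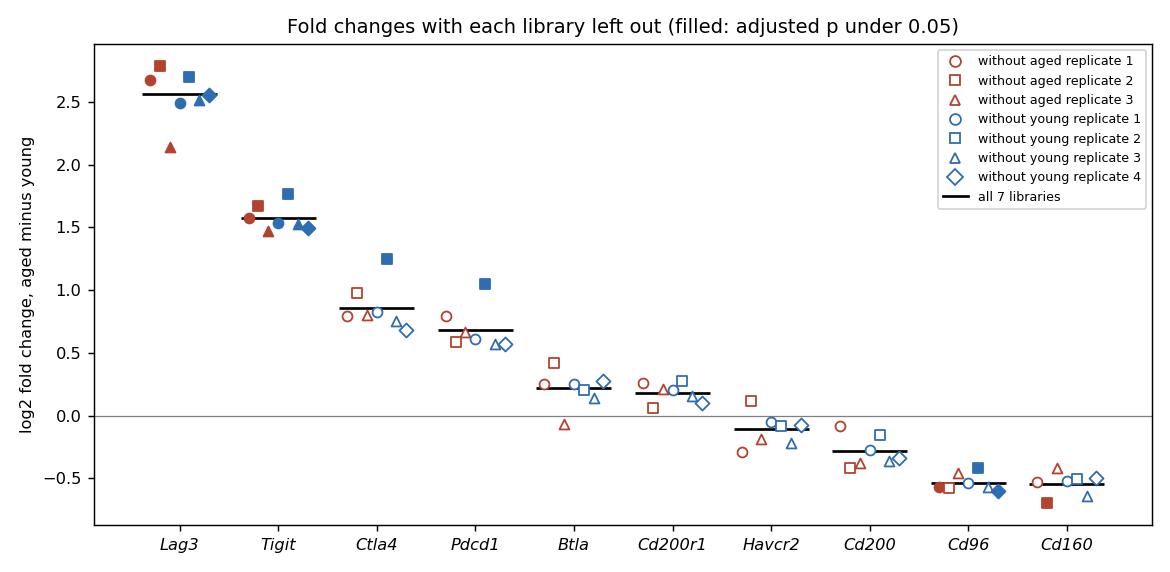
Log2 fold change (aged minus young) of each receptor transcript with 1 library left out at a time, the lines giving the value over all 7 libraries. Filled symbols have an adjusted p under 0.05. Ctla4 and Pdcd1 are filled only without young replicate 2, at 1.25 and 1.05.

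Cd160 encodes a GPI-anchored receptor that shares the ligand HVEM (Tnfrsf14) with BTLA and is known from NK, CD8 and gamma delta T cells. Its gene (ENSMUSG00000038304) lies on the minus strand at chr3:96798763-96829351, and 2.57% of its exon bases are shared with Pdzk1 on the other strand. Because counting did not use strand, reads there cannot be told apart. Cd160 was 11.01, 13.6 and 9.26 CPM in aged and 17.1, 17.6, 13.0 and 17.9 CPM in young libraries. The groups overlapped through aged replicate 2 and young replicate 3. The log2 fold change was -0.54 (SE 0.18, 95% interval -0.95 to -0.13, adjusted p = 0.0717). It passed without aged replicate 2 (-0.70, adjusted p = 0.0498) and not without any other library. It also passed with DESeq2 (adjusted p = 0.0405), with scaling by library size only (0.0455) and with scaling to T cell genes (-0.74, adjusted p = 0.0284). The NK and gamma delta T cell markers given for Cd96 stand beside Cd160 too, and their part was not tested.

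Btla encodes the second receptor of HVEM and is abundant on B cells as well as T cells. Its gene (ENSMUSG00000052013) lies on the plus strand at chr16:45224315-45257670. Btla was 225, 166 and 324 CPM in aged and 219.9, 199.7, 169.9 and 230.5 CPM in young libraries. The aged libraries spread over a wider range than the young ones and held both the lowest and the highest value. The log2 fold change was 0.22 (SE 0.22, 95% interval -0.27 to 0.71, adjusted p = 0.529), and it was -0.07 without aged replicate 3. The 9 B cell markers summed to 1074 to 1991 CPM in aged and 1513 to 2326 CPM in young libraries, with none called.

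Cd200r1 encodes the inhibitory receptor of CD200, and the ligand is encoded by Cd200. Cd200r1 (ENSMUSG00000022667) lies on the plus strand at chr16:44765736-44794978 and Cd200 (ENSMUSG00000022661) on the minus strand at chr16:45382135-45409053. Cd200r1 was 24.0, 31.4 and 25.9 CPM in aged and 24.9, 28.2, 22.6 and 19.9 CPM in young libraries. Cd200 was 37.8, 63.9 and 61.0 CPM in aged and 66.7, 83.4, 55.4 and 58.6 CPM in young libraries. Both overlapped between the ages, with aged replicate 1 the lowest library for Cd200. The log2 fold changes were 0.18 (SE 0.15, 95% interval -0.17 to 0.53, adjusted p = 0.454) for Cd200r1 and -0.28 (SE 0.21, 95% interval -0.76 to 0.19, adjusted p = 0.381) for Cd200. The sign of Cd200r1 turned to -0.02 under the scaling to T cell genes, and that of Cd200 turned to 0.05 without young replicate 2 and aged replicate 1.

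Havcr2 encodes TIM-3, a receptor of galectin-9 that is also carried by myeloid cells. Its gene (ENSMUSG00000020399) lies on the plus strand at chr11:46454935-46481255. Havcr2 was 11.3, 6.04 and 10.2 CPM in aged and 11.01, 10.4, 7.50 and 10.7 CPM in young libraries. The lowest library of each age, aged replicate 2 and young replicate 3, lay well below the others. The log2 fold change was -0.11 (SE 0.24, 95% interval -0.66 to 0.44, adjusted p = 0.797), and it was 0.11 without aged replicate 2.

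Levels between receptors were compared per kilobase of exon (CPM per kb, GENCODE M21). Ctla4 was the highest in both ages, at 330 ± 47.8 (n = 3) in aged and 182 ± 88.2 (n = 4) in young Tregs. Tigit was the next in aged Tregs at 177 ± 24.5 and ranked 4 in young Tregs at 59.3 ± 14.9. Lag3 ranked 3 in aged and 7 in young Tregs, at 70.6 ± 31.5 and 12.0 ± 2.31. Btla, with 70.1 ± 23.6 in aged and 60.4 ± 7.85 in young Tregs, overlapped with Lag3 in aged Tregs. Cd96 ranked 5 in aged Tregs at 49.7 ± 4.50, overlapping with Btla, and 2 in young Tregs at 71.9 ± 11.6. In young Tregs the libraries of Cd96, Btla and Tigit overlapped with each other, and in aged Tregs those of Cd96 also overlapped with those of Lag3, so the order within these sets was not separated. Pdcd1 was at 38.4 ± 5.65 in aged and 23.8 ± 10.6 in young Tregs, Cd200 at 16.3 ± 4.30 and 19.9 ± 3.77, and Cd200r1 at 8.10 ± 1.15 and 7.14 ± 1.06. In young Tregs Pdcd1 overlapped with Cd200, and Cd200r1 with Cd160. Cd160 and Havcr2 were the lowest, at 4.27 ± 0.825 and 3.37 ± 1.02 in aged, where they overlapped, and 6.21 ± 0.863 and 3.64 ± 0.596 in young Tregs, where they did not.

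Ctla4, Tigit, Cd96, Btla and Cd200r1 were next set beside the transcript of a receptor that shares their ligands, or of their ligand, as a ratio of counts within a library, which does not depend on scaling between libraries. Tigit counts were 3.13, 5.26 and 5.80 times those of Cd226 in aged and 1.16, 1.27, 1.18 and 1.30 times in young libraries. All aged ratios were above all young ones, and young replicate 2 was within the young range. The log2 ratio was higher by 1.90, a 3.73-fold difference. The ratio of Ctla4 to Cd28, whose products share CD80 and CD86, was 3.28, 3.71 and 4.18 in aged and 2.37, 2.93, 2.06 and 1.89 in young libraries. The aged ratios again lay above the young ones, young replicate 2 included, with a log2 difference of 0.70 or 1.63-fold. The ratio of Cd200r1 to Cd200 was 0.636, 0.493 and 0.426 in aged and 0.374, 0.339, 0.409 and 0.339 in young libraries, a log2 difference of 0.49 without overlap. For these 3 ratios the exact permutation test gave p = 0.0571 each (two-sided), the smallest value that 3 against 4 libraries allow, or 0.0952 adjusted over the 5 ratios tested. They therefore could not pass 0.05. Cd96 to Cd226 differed by -0.22 on the log2 scale (exact permutation p = 0.514, adjusted 0.643) and Btla to Tnfrsf14 by 0.04 (exact permutation p = 0.971, adjusted 0.971), and both overlapped between the ages.

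**Figure D4:**
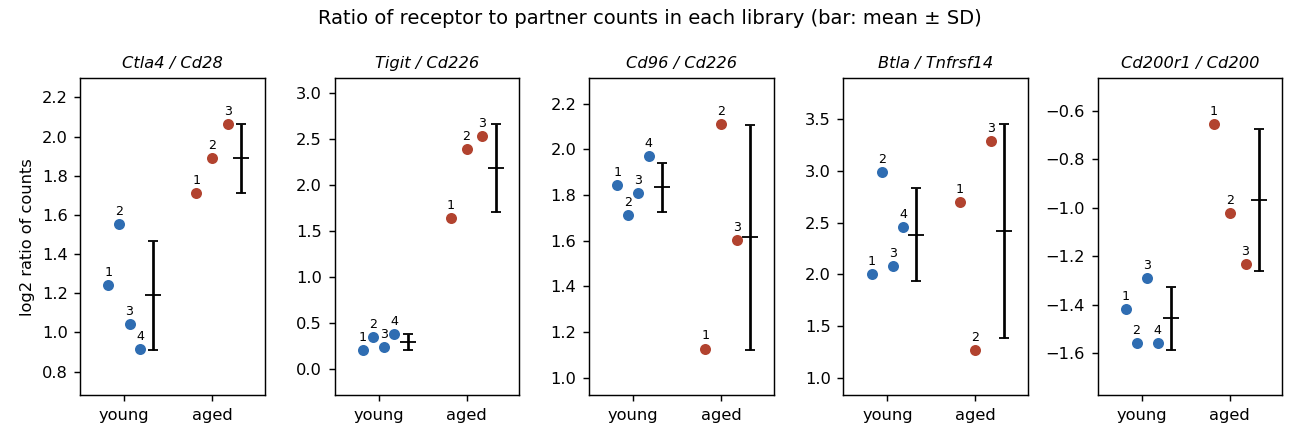
Log2 ratio of receptor to partner counts in each library (1 added to each count), numbered by replicate, with mean ± SD per age. The aged libraries lie above the young ones for Ctla4 to Cd28, Tigit to Cd226 and Cd200r1 to Cd200, and the ages overlap for the other two ratios.

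The activating receptors that pair with these inhibitors were listed as Cd28, Icos and Cd226, of which 1 of 3 rose, where 9.8% of all tested genes were called higher. Icos, a relative of Cd28 that maintains effector Tregs and T follicular helper cells and lies beside Ctla4, was 238, 186 and 249 CPM in aged and 122, 164, 101 and 88.0 CPM in young libraries, without overlap. It rose by a log2 fold change of 0.92 (SE 0.21, adjusted p = 0.0221). The adjusted p was 0.0768 without aged replicate 3, 0.0547 without young replicate 1, 0.0652 without young replicate 3 and 0.0523 without young replicate 4. Cd28 had 208 ± 41.1 and 176 ± 48.0 CPM (adjusted p = 0.475) and Cd226 had 36.7 ± 13.2 and 44.4 ± 10.4 CPM (adjusted p = 0.495) in aged and young Tregs.

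Of 17 listed ligands and binding partners, 14 were tested, and 3 rose and 0 fell (median log2 fold change 0.14). This was 21.4% called, against 16.7% of all tested genes, in a list chosen with earlier results known. The 3 genes that rose were Cd86, Cd274 and Pdcd1lg2. Cd86, a ligand of CTLA-4 and CD28, rose from 29.9 ± 4.61 (n = 4) to 50.9 ± 1.09 CPM (n = 3; adjusted p = 0.00606). Cd274, which encodes PD-L1, rose from 56.7 ± 6.75 to 90.8 ± 15.0 CPM (adjusted p = 0.0135). Pdcd1lg2, which encodes PD-L2, rose from 12.2 ± 0.992 to 17.8 ± 3.27 CPM (adjusted p = 0.0457), but only without aged replicate 1 did its call hold, with adjusted p of 0.0619 to 0.149 when any other library was left out. Antigen-presenting and other myeloid cells also express these genes. Dendritic cell markers summed to 47.6 to 67.1 CPM in aged and 78.9 to 98.8 in young libraries, with 4 of 8 called lower and Zbtb46 called higher, where 6.94% of all tested genes were called lower. Among those called lower, Cd209a had 0, 10 and 6 counts in the aged and 48 to 112 in the young libraries. It passed the filter on low counts through the young libraries. Monocyte or macrophage markers summed to 427 to 585 and 538 to 633 CPM, with 3 of 10 called lower. Of 8 neutrophil markers, 4 were called higher (S100a8, S100a9, Retnlg and Cxcr2) and 0 lower, with a median log2 fold change of 2.03, where 9.8% of all tested genes were called higher. The neutrophil sum was 4501 CPM in aged replicate 1 and 1672 and 632 in aged replicates 2 and 3. Without aged replicate 1 the median was 1.09 and 2 of 8 were called higher. With another library left out 1 to 6 were called, 1 without young replicate 1 or young replicate 4 and 6 without aged replicate 3. The part of such cells was not tested. Of the other partners, Cd80 (log2 fold change 0.18, adjusted p = 0.673), Pvr (-0.04, adjusted p = 0.875), Nectin2 (-0.04, adjusted p = 0.935) and Tnfrsf14 (0.17, adjusted p = 0.756) did not pass.

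Of 16 further inhibitory receptors, 14 were tested, with 3 higher and 3 lower in aged Tregs (median log2 fold change -0.06). This was 42.9% called, against 16.7% of all tested genes, in a list chosen with earlier results known. Lilrb4a, an inhibitory receptor known from myeloid and plasma cells and activated T cells, rose from 9.59 ± 1.22 (n = 4) to 81.6 ± 33.7 CPM (n = 3; log2 fold change 3.09, adjusted p = 0.000618), and its call held in 7 of 7 fits with a library left out. The neutrophil markers given for the ligands, with 4 of 8 called higher, stand beside Lilrb4a and Fcgr2b too, and their part was not tested. Cd101 rose by 0.65 (adjusted p = 0.0379) and Fcgr2b, the inhibitory Fc receptor of B and myeloid cells, by 0.63 (adjusted p = 0.0473), both as log2 fold changes. Pecam1, an adhesion receptor with inhibitory motifs, fell by 0.63 (adjusted p = 0.00519), and its call too held in 7 of 7 such fits. Cd244a fell by 0.74 (adjusted p = 0.0193) and Cd5, which tunes T cell receptor signals, by 0.42 (adjusted p = 0.0422). Of the markers given above, 1 of 8 for NK cells, 3 of 10 for monocytes or macrophages and 4 of 8 for dendritic cells were also called lower, as were 7 of 7 for naive T cells (median log2 fold change -1.15), and the part of such cells in the falls of Cd244a, Pecam1 and Cd5 was not tested. Cd101 held its call only without aged replicate 3, and Fcgr2b and Cd5 only without aged replicate 1, with adjusted p of 0.0586 to 0.172 in the other fits with a library left out. Cd244a missed without aged replicate 2 (0.0502) and young replicate 4 (0.0629).

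Of 18 genes that carry checkpoint signals or move CTLA-4 within the cell, all 18 were tested, and 1 rose and 4 fell (median log2 fold change -0.18). This was 27.8% called, against 16.7% of all tested genes, in a list chosen with earlier results known. Def6, linked to the recycling of CTLA-4, fell from 134 ± 11.02 (n = 4) to 84.1 ± 2.58 CPM (n = 3, adjusted p = 0.00337). Csk, the kinase that restrains Lck, fell from 433 ± 24.9 to 288 ± 18.5 CPM (adjusted p = 0.00836). Ptpn6, the phosphatase SHP-1, fell by 0.55 (log2, adjusted p = 0.0373) and Ap1m1, an adaptor subunit for traffic from the Golgi, by 0.36 (adjusted p = 0.0309). Dok1, an adaptor that restrains Ras signalling, rose by 0.69 (adjusted p = 0.0157). Ptpn11, the phosphatase SHP-2 that PD-1 recruits, had a log2 fold change of 0.11 (adjusted p = 0.521) and Lrba one of 0.23 (adjusted p = 0.338). Among cell markers, 7 of 7 for naive T cells, 4 of 8 for dendritic cells and 3 of 10 for monocytes or macrophages were called lower. Called higher were 4 of 8 for neutrophils, 1 of 8 for dendritic cells, 5 of 8 for T follicular helper and 4 of 9 for effector memory T cells. The T follicular helper calls include Il21 and Sostdc1, which passed the filter on low counts only through the aged libraries. Over all tested genes 6.94% were called lower and 9.8% higher. The part of such cells in the changes of these 5 genes was not tested. Def6 and Csk kept their calls with any library left out. Ptpn6 kept its call only without aged replicate 2, and Ap1m1 only without aged replicate 1 or young replicate 2, with adjusted p of 0.0567 to 0.112 in the others, and Dok1 missed without aged replicate 3 (0.0570) and young replicate 1 (0.0508).

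Of 21 transcription factors linked to checkpoint genes, 5 rose and 3 fell (median log2 fold change 0.16). This was 38.1% called, against 16.7% of all tested genes, in a list chosen with earlier results known. Maf, a factor of T follicular helper and IL-10 producing cells, rose from 60.3 ± 7.33 (n = 4) to 131 ± 15.7 CPM (n = 3; adjusted p = 0.00131). Tox2 rose from 7.10 ± 0.628 to 17.3 ± 3.00 CPM (adjusted p = 0.00193), Batf, an AP-1 family factor of effector Tregs, from 46.7 ± 7.95 to 93.1 ± 12.8 CPM (adjusted p = 0.00397), and Tbx21, which encodes T-bet, from 8.19 ± 1.80 to 16.9 ± 2.16 CPM (adjusted p = 0.0105). These 4 kept their calls with any library left out. Prdm1, which encodes Blimp-1, rose with a log2 fold change of 1.20 (adjusted p = 0.0326). Tcf7, a factor of naive and memory-like T cells, fell by 0.43 (adjusted p = 0.0235), and the AP-1 genes Jun and Fos fell by 1.65 (adjusted p = 0.0199) and 1.71 (adjusted p = 0.0496). The ages overlapped for Fos, with aged replicate 1 at 334 CPM and young replicate 3 at 239.8. Young replicate 3 was the lowest young library for both genes, at 177 CPM for Jun against 464 to 566 in the other young libraries, and for Fos against 636.5 to 1054. Prdm1, Tcf7, Jun and Fos each missed the threshold in 4 or 5 of the 7 fits with a library left out, with adjusted p of 0.0521 to 0.160 there. Tox had a log2 fold change of 0.39 (adjusted p = 0.0799) and Foxp3 one of 0.21 (adjusted p = 0.409).

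Markers of T cell subsets were set beside these results. Over all tested genes, 9.8% were called higher and 6.94% lower. Of 8 tested T follicular helper markers, 5 were called higher, Cxcr5, Il21, Tox2, Angptl2 and Sostdc1, and the summed level of the list was 362 to 473 CPM in aged and 290.1 to 337 CPM in young libraries. Of 9 effector memory markers, 4 were called higher, with sums of 751 to 895 and 520.1 to 657 CPM. All 7 naive T cell markers were called lower, with sums of 943 to 1170 CPM in aged and 1889 to 2229 CPM in young libraries. The 3 sums did not overlap between the ages, and each marker of the 3 lists had a count in at least 1 library. Sostdc1 had 0 counts in young replicates 1 and 2, 2 and 6 in young replicates 3 and 4, and 78 to 156 in the aged libraries. Il21 had 4, 9, 7 and 9 counts in young replicates 1 to 4, and 61 to 144 in the aged libraries. Both genes passed the filter on low counts only through the aged libraries. A rise was thus nearly the only outcome open to them, and their calls add nothing to the comparison with all genes. Of 10 Treg markers, 2 were called, both lower (Lrrc32 and Gpr83). The part of these subsets in the rise of Lag3 and Tigit and in the fall of Cd96 was not tested.

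Of the receptors, 5 lie near each other on chromosome 16, in the order Tigit, Cd200r1, Btla, Cd200 and Cd96, with 2.39 Mb between the lowest coordinates of the first and the last. Over this stretch the log2 fold changes of the receptors were 1.58, 0.18, 0.22, -0.28 and -0.53, so the 2 called receptors stood at its ends with opposite signs. Between them 21 other genes were tested, of which 3 were called higher and 0 lower, where 9.8% of all tested genes were called higher and 6.94% lower. They were Ccdc80 (2.51, adjusted p = 0.00230), Boc (1.49, adjusted p = 0.0139) and Qtrtd1 (0.45, adjusted p = 0.0340). Boc was low, at 1.30 ± 0.189 CPM (n = 3) in aged and 0.458 ± 0.0290 CPM (n = 4) in young Tregs. With 11 to 17 counts in aged and 5 to 7 in young libraries, Boc passed the filter on low counts only through the aged libraries. A rise was thus nearly the only outcome open to it. Qtrtd1 kept its call only without aged replicate 1, with adjusted p of 0.0573 to 0.0902 in the other fits with a library left out.

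**Figure D5:**
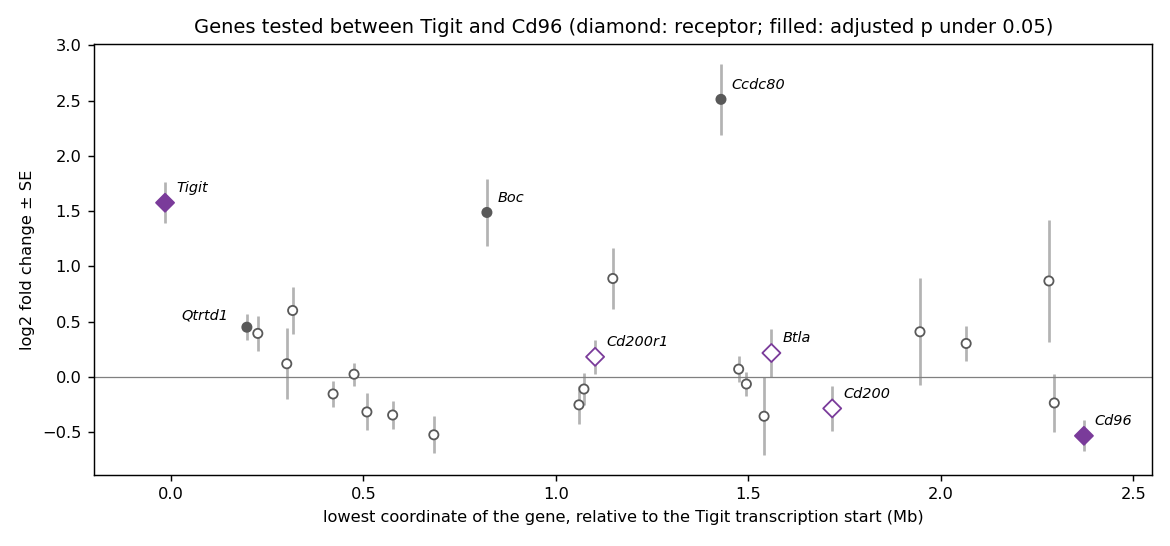
Log2 fold change (aged minus young, ± SE from edgeR) of the 26 tested genes from Tigit to Cd96 on chromosome 16, by distance from the Tigit start in Mb. Diamonds are receptors, circles other genes, and filled symbols have an adjusted p under 0.05. Tigit at 1.58 and Cd96 at -0.53 lie at the ends. Of the genes between them, Ccdc80 at 2.51, Boc at 1.49 and Qtrtd1 at 0.45 are filled.

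The genes whose pattern over the 7 libraries was most like that of Lag3 and Cd96 were found among the 9425 genes whose mean log2 CPM was at least 3, by the root mean square difference of centred log2 CPM. For Lag3 they were Casp4 (0.24), Casp1 (0.33) and Fam160a1 (0.36). Casp1 and Casp4 encode inflammatory caspases. The measure itself picks genes with fold changes like that of Lag3. For Cd96 they were Zfp52 (0.05), Bcl2 (0.06) and Klk8 (0.07). Bcl2, an inhibitor of apoptosis, was 140.5, 141 and 126.5 CPM in aged and 209, 231, 188.5 and 177 CPM in young libraries and fell by 0.56 on the log2 scale.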

How the data were processed

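RNA-seq of splenic CD4+CD25+ cells in 3 libraries of aged and 4 of young mice was analysed. RNA was reverse transcribed with a SMART-Seq v4 kit, without molecular identifiers. The authors deposited raw read counts per gene for each library, counted without strand by the file names, and a table of signal values, which equal the count divided by 1 size factor per library (100% of values within 0.1%). The same table held the authors' own comparison (mean, log2 fold change, its standard error, statistic, p-value and adjusted p-value), which was not used. The submitters' processing notes name mm10, which is the GRCm38 assembly. The aligner and annotation release are not given in the sources used here. Reads on no gene or several genes (13.1% to 20.9%) were left out.

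Counts were tested by the quasi-likelihood method of edgeR 4.0.16 under R 4.3.3 (TMM, filterByExpr, no covariate), with Benjamini-Hochberg adjustment over 13904 genes and a threshold of 0.05. Intervals are 95%. On simulated data of 13684 genes, edgeR called 79 of 97 genes changed by log2 2 and 49 of 95 changed by log2 1, with 9 false calls. Ratios were tested by exact permutation. Alternatives were DESeq2 1.42.0, limma 3.58.1 (voom, trend with prior count 2, deposited values plus 1), other scalings and filters, thinning to 10734234 counts, removal of GC and length trends, a replicate block, each library left out and stricter thresholds. Leaving out the library of each age that was highest on the second principal component was chosen after the data were seen.

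The receptors and all lists were chosen with earlier results of these data known. Named genes were the receptors, the called genes of each list (up to 8 by p), 9 partner genes, called chromosome neighbours, Cd4, Il2ra and Foxp3, and the 3 genes most like the receptor with the largest called rise and fall. Ptms, Ptpn11, Lrba, Tox and markers were named beyond this rule, after their values were seen. Coordinates are GENCODE M21 on GRCm38, matched by gene identifier (25354 of 25469). Promoters are RefSeq's, shortened to the 250 bases upstream, matched for 8 of 10 receptors, all but Lag3 and Cd200r1. The analysis of protein motifs was not done.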

Additional observations from a re-analysis of the deposited data

Results flagged for a closer look

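Of 50 quantities checked (the levels of the named genes and the 5 ratios), 5 had 1 young library that lay far from the other three by Dixon's criterion for 4 values, which chance meets in about 1 of 20 groups. Young replicate 2 was the highest for Pdcd1 (76.5 CPM, the others at 34.3 to 38.4), Tigit (74.8 CPM, the others at 44.8 to 49.5) and Batf (58.5 CPM, the others at 41.9 to 44.0). Young replicate 3 was the lowest for Havcr2 (7.50 CPM, the others at 10.4 to 11.01) and Cd160 (13.0 CPM, the others at 17.1 to 17.9). The aged libraries, of which there are 3, were not checked this way.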

How the results depend on the processing

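Lag3 and Tigit were called in 14 of 15 alternatives and Cd96 in 13 of 15, all in the same direction. Lag3 and Tigit lost their call with the replicate block and GC and length trends removed together (adjusted p = 0.0513 and 0.0507). Cd96 was also lost under the block alone (0.0805). Over the 15 alternatives the log2 fold changes were 2.37 to 2.81 for Lag3, 1.40 to 1.77 for Tigit and -0.72 to -0.45 for Cd96. Same-numbered libraries did not deviate together (correlations -0.09, -0.29 and -0.14, against -0.24 to 0.23 for pairs of different number). So few pairs cannot decide whether the numbers mark a pairing or a batch, and the labels do not say. The replicate block left 292 genes called, and 260 with GC and length trends removed, of 2327. Under these 2 blocks the calls were 2 and 0 of 3 for the receptors, 0 and 0 of 3 for ligands, 0 and 0 of 1 for activating counterparts, 1 and 1 of 6 for other inhibitory receptors, 0 and 0 of 5 for signalling, 1 and 0 of 8 for transcription factors, and 1 and 0 of 4 for chromosome neighbours (the 3 called genes of the chromosome 16 interval, and Icos beside Ctla4). Of the called receptors, Lag3 and Tigit also passed an adjusted p under 0.01 and a log2 change of 1 or more in size. Cd96 (adjusted p = 0.0347, log2 fold change -0.53) passed neither. At an adjusted p under 0.01 the other calls were 741 genes over the whole series, 1 ligand, 0 activating counterparts, 2 other inhibitory receptors, 2 signalling genes, 3 transcription factors and 1 neighbour. At an adjusted p under 0.05 with changes of 1 or more in size (log2), they were 1016 genes, 0 ligands, 0 activating counterparts, 1 other inhibitory receptor, 0 signalling genes and 2 neighbours. Without both young replicate 2 and aged replicate 1, 3254 genes were called in all, with 5 receptors, 5 ligands and 7 neighbours. In that fit Cd200 reversed to 0.0488 and Nectin2 to 0.149. DESeq2 called 2910 genes in all, with 5 ligands and 7 neighbours. Library size alone called 1835 genes and left 3 other inhibitory receptors. Scaling to T cell genes called 2215 genes in all, with 1 ligand and 8 signalling genes, and reversed Cd200r1 (-0.0166) and Tnfrsf14 (-0.0803). It left 5 receptors without overlap, a count for which no share over all genes is given.

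With each library left out, 1237 to 3058 genes were called (1262 without aged replicate 3, and 1315, 1270 and 1237 without young replicates 1, 3 and 4). Among them were 2 to 5 receptors, 2 to 5 ligands, 0 to 1 activating counterparts, 2 to 6 other inhibitory receptors, 2 to 6 signalling genes, 4 to 8 transcription factors and 2 to 7 neighbours. In these fits 3 to 5 receptors did not overlap. Fewer libraries make an overlap less likely for any gene, and no share over all genes is given there. The Cd96 to Cd226 ratio ranged from -0.467 to 0.0249 and reversed without aged replicate 1. The Btla to Tnfrsf14 ratio ranged from -0.398 to 0.609, at -0.106 without aged replicate 1, -0.398 without aged replicate 3, -0.0910 without young replicate 1 and -0.0650 without young replicate 3. The other 3 ratios ranged from 0.610 to 0.822 (Ctla4 to Cd28), 1.73 to 2.17 (Tigit to Cd226) and 0.330 to 0.620 (Cd200r1 to Cd200). Among the genes that the naming rule selected, those not called that changed sign were Havcr2 (-0.288 to 0.115, positive without aged replicate 2), Btla (-0.0692 to 0.419, negative without aged replicate 3), Tnfrsf14 (-0.258 to 0.352, negative without aged replicate 2 and, at -0.00489, without young replicate 2), Pvr (-0.1999 to 0.0786, positive without aged replicate 3) and Nectin2 (-0.293 to 0.149, positive without aged replicate 1 and at 0.0597 without young replicate 1 and 0.000317 without young replicate 3). The cause of these changes was not tested. Among the 10 receptors the counts were lowest for Havcr2 and Cd160, with 60 to 149 and 99 to 251 counts per library.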
